A study of Oryza sativa with 6 samples.

Results

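The pericentromeres of 10 rice chromosomes were examined for acetylation of histone H3 at lysine 9 (H3K9ac). They are the stretches within 3 Mb of a given centromere position on every chromosome other than 4 and 10. Peaks of 6 libraries were merged wherever they overlapped by at least 1 bp, and a merged region was a member when its midpoint lay in such a stretch. This gave 1847 members among 17468 merged regions on the 12 nuclear chromosomes, 10.6% of the total. The rest of the same 10 chromosomes held 13183 regions, and chromosomes 4 and 10, which were left aside, held 2438. The centromere positions, in Mb, were 16.7 on chromosome 1, 13.6 on chromosome 2, 19.4 on chromosome 3, 12.4 on chromosome 5, 15.3 on chromosome 6, 12.1 on chromosome 7, 12.9 on chromosome 8, 2.8 on chromosome 9, 12.0 on chromosome 11 and 11.9 on chromosome 12. They are given to 1 decimal and mark a point, not the borders of a centromere. On chromosome 9 the stretch is cut short by the chromosome end and spans 5.8 Mb; each of the others spans 6 Mb.

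All plants were Oryza sativa seedlings aged 20 days, grown in soil in a greenhouse, and the labels give leaf nuclei for every library, although the design text of the series speaks of whole seedlings. No cultivar, allele or other agent is named in the labels. There were 3 groups with 2 libraries each: leaves infested with Spodoptera frugiperda (fall armyworm) for 12 h, leaves infested for 3 h, and uninfested control leaves. The antibody was against H3K9ac (Abcam), and the assay was CUT&Tag, in which a transposase tethered to the antibody inserts sequencing adapters beside the mark. The labels do not say whether replicates came from separate plants, so a p-value over libraries covers no more than library-to-library spread, which may be technical.

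H3K9ac is set by histone acetyltransferases, removed by deacetylases, and concentrates at the first nucleosomes of transcribed genes. A plant centromere is defined by nucleosomes that carry the variant histone CENH3, and in rice it sits on arrays of a short satellite repeat mixed with retrotransposons. The flanking pericentromere is rich in transposable elements, carries DNA methylation and methylation of the same lysine of H3, and has fewer genes than the arms. Genes that lie in it can nevertheless be active, and their promoters can then carry acetylation.

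The lists held 12548 and 12167 peaks at 12 h, 11738 and 14010 at 3 h, and 5150 and 5644 in control. Read totals were not used here. The fold of a peak, as the authors deposited it, is the enrichment at its summit over the local background that the peak caller used for that list. Whether this background came from the same library or from an input is not given in the sources used here. Together with the deposited −log10 p the fold returned a whole number of fragments at the summit for 100% of peaks in every list, within 0.001 on the −log10 p. Median summit coverage was 13 to 17 fragments per list, and the lowest local background of a list, taken as its genome background, was 1.43 to 2.43 fragments. At that depth a missing call says that a region did not pass the threshold in a library, not that the mark was absent. Fewer nuclei with the mark and less of the mark per nucleus cannot be told apart in such bulk material.

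Acetylated regions were sparser in the pericentromeres than in the rest of the same chromosomes in every library. The 12 h lists called 19.2 and 19.0 regions per Mb in the pericentromeres and 32.7 and 32.2 in the rest. At 3 h the values were 18.2 and 21.8 per Mb in the pericentromeres and 30.1 and 35.2 in the rest. In control leaves they were 8.38 and 9.08 per Mb in the pericentromeres and 13.4 and 15.0 in the rest. Each library thus had about the same proportional deficit, whatever the length of its list. The mean ratio was 0.605 (log2 ratio −0.73 ± 0.04, SD, n = 6 libraries), lower in 6 of 6 libraries (exact sign-flip permutation test, two-sided, p = 0.0312, the smallest 6 libraries can give; adjusted p = 0.0312 over 6 measures). The 10 stretches made up 19.0% of the length of these chromosomes and 12.3% of their regions. Members covered 2.29% of the pericentromeric length, against 4.09% in the rest, where length was counted up to the end of the last region of a chromosome. Length was not corrected for assembly gaps or for sequence where reads could not be placed, and their part in the deficit was not tested.

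**Figure D1:**
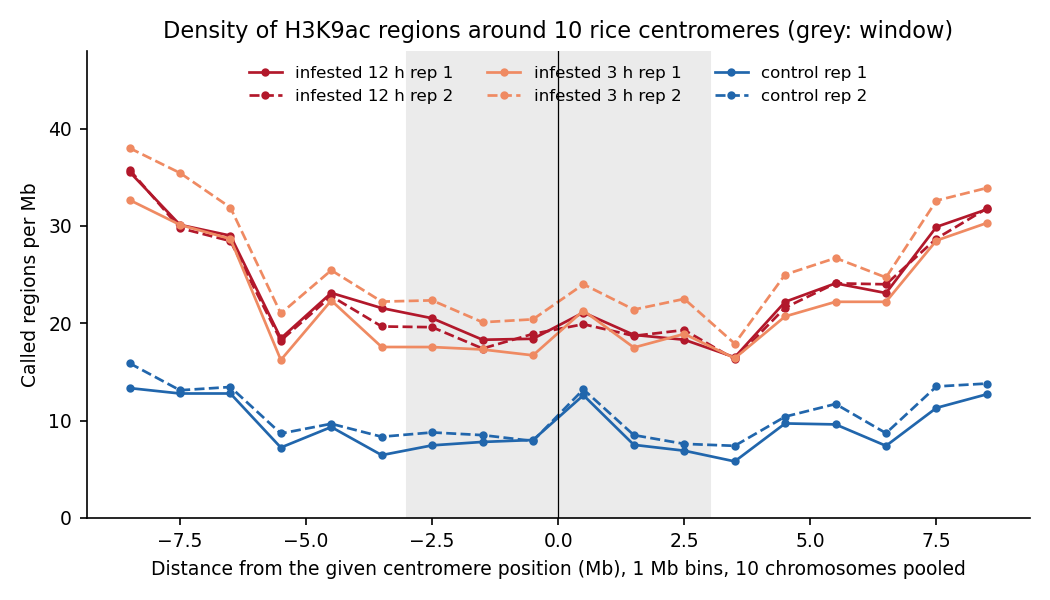
Called regions per Mb (vertical axis) in 1 Mb bins of distance from the given centromere position (horizontal axis, Mb), pooled over 10 chromosomes (9 beyond 3 Mb below, where chromosome 9 has ended), with 1 line per library and the 3 Mb limits in grey. All 6 lines run low across the grey band and beyond it, and all 6 have a local peak in the first megabase above the position.

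The deficit did not begin at the 3 Mb limit. From 3 to 4 Mb above the position, outside the limit, mean density was 16.4 per Mb at 12 h, 17.2 at 3 h and 6.60 in control, against means inside the limit of 19.1, 20.0 and 8.73 per Mb in the same groups. From 5 to 6 Mb below the position it was 18.3, 18.6 and 7.94 per Mb in the same groups. It reached 35.7, 35.3 and 14.6 per Mb from 8 to 9 Mb below. The limit therefore cuts through a wider sparse zone. The 2 members closest inside it were chromosome 12 from 14893590 to 14893954, called in 3 h replicate 1 alone with a fold of 3.22, and chromosome 11 from 9000360 to 9001514, called in all 6 lists. The 2 regions closest outside were chromosome 7 from 9099382 to 9099752, called in 3 h replicate 2 alone with a fold of 3.30, and chromosome 8 from 15900104 to 15901147, called in 5 lists.

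Every chromosome showed the deficit in every library, 60 of 60 pairs of chromosome and library. It was deepest on chromosome 5, where the ratio of pericentromere to rest was 0.450 and 0.489 in the 12 h lists, 0.437 and 0.473 in the 3 h lists, and 0.408 and 0.400 in the control lists. On chromosome 6 the ratio was 0.717 and 0.746 in the 12 h lists, 0.781 and 0.752 in the 3 h lists, and 0.857 and 0.885 in the control lists. Chromosome 5 lay below chromosome 6 in each library with no overlap. Chromosome 12 was much like chromosome 6, at 0.720 and 0.754 in the 12 h lists, 0.785 and 0.756 in the 3 h lists, and 0.788 and 0.835 in the control lists. Chromosome 11 had ratios of 0.669 and 0.628 at 12 h and 0.670 and 0.716 at 3 h, but its control replicates stood far apart, at 0.928 and 0.671. On chromosomes 6, 9 and 12 both control ratios lay above all 4 infested ratios, and on chromosomes 5 and 8 both lay below them. The groups overlapped on the other 5 chromosomes, and these differences between groups were not tested.

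**Figure D2:**
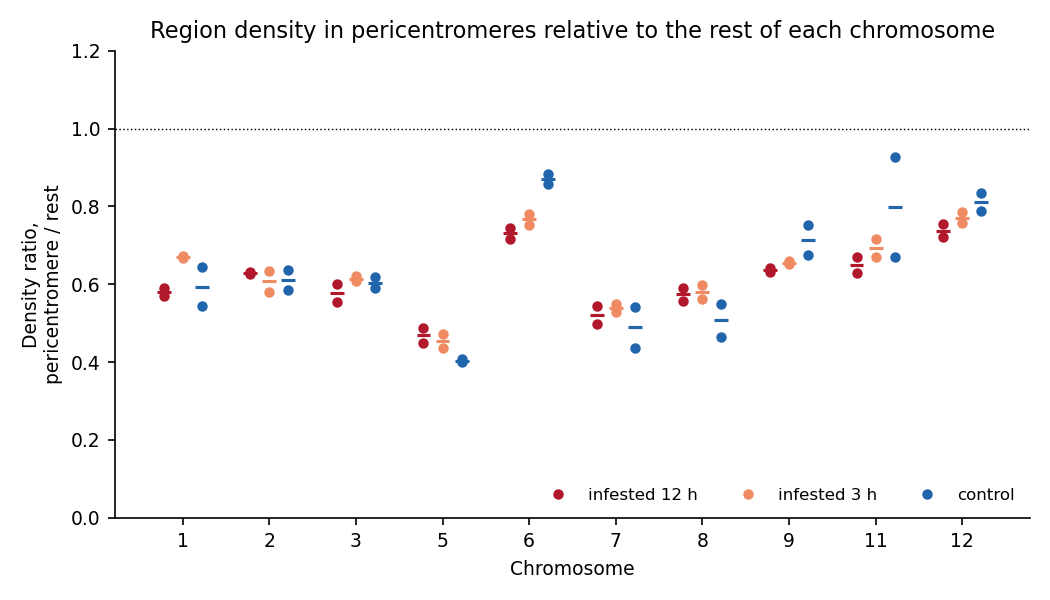
Ratio of region density in the pericentromere to that in the rest of the same chromosome (vertical axis) for 10 chromosomes (horizontal axis). Each point is a library and each short bar a group mean; all 60 points lie below 1, chromosome 5 lowest.

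Measured in regions per Mb, the densest pericentromere at 12 h was that of chromosome 3, at 23.3 ± 1.41 (SD, n = 2), and the sparsest that of chromosome 11, at 14.6 ± 0.589. At 3 h chromosomes 1 and 3 both averaged 24.9 per Mb (SD 2.71 and 3.42, n = 2), and chromosome 5 was lowest at 15.7 ± 2.59. In control chromosome 6 was densest at 11.6 ± 1.06 and chromosome 5 sparsest at 5.42 ± 0.118 (SD, n = 2). Chromosome 2, next in the 12 h order at 23.1 ± 0.118, did not differ from chromosome 3 beyond the spread of the replicates. Members lay a median of 14.5 kb (chromosome 3) to 21.8 kb (chromosome 8) apart, against 9.86 to 12.9 kb between regions of the rest.

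The longest pericentromeric stretch without a call in any list was on chromosome 7, from 11939082 to 12342299, a length of 403 kb that contains the given centromere position. On chromosome 3 a stretch of 292 kb from 18882907 to 19175273 was free of calls, and on the other 8 chromosomes the longest measured 166 to 267 kb. Such stretches also lay elsewhere: in the rest of the same chromosomes the longest ran from 162 to 430 kb, and on 5 of 10 chromosomes it was longer than that in the pericentromere. Whether reads could be placed in these stretches was not tested, since no genome sequence of the build was used here and the handling of reads with several matches is not given in the sources used here.

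Although fewer, called members had a higher fold over their local background than called regions elsewhere. The median fold at 12 h was 4.35 and 4.42 in the pericentromeres and 4.02 and 4.05 in the rest. At 3 h it was 4.09 and 4.05 in the pericentromeres and 3.78 and 3.68 in the rest. Control leaves had 3.77 and 3.96 in the pericentromeres and 3.64 and 3.77 in the rest. Every library thus placed its pericentromeric median above that of its rest. The mean ratio was 1.07 (log2 ratio 0.10 ± 0.03, SD, n = 6), higher in 6 of 6 libraries (exact sign-flip permutation test, two-sided, p = 0.0312, adjusted p = 0.0312). Only peaks that passed the threshold are listed, and over a lower local background a peak needs a higher fold to pass. The part of this selection was not tested, and regions called in all 6 lists passed the same threshold. By chromosome and library, 53 of 60 pairs had the higher median in the pericentromere, and chromosome 12 had it in 3 of 6 libraries.

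The higher fold did not come with more fragments at the summit. Median summit coverage of members was 12 fragments in both 12 h libraries, 15 in both 3 h libraries, and 15 and 14 in control, against 13 in both 12 h libraries, 16 in both 3 h libraries, and 17 and 15 in control for the rest. It was lower in 6 of 6 libraries, with a mean ratio of 0.923 (log2 ratio −0.12 ± 0.03, SD, n = 6; exact sign-flip permutation p = 0.0312, adjusted p = 0.0312). The local background under the peaks differed more. Its median at members was 1.90 and 1.86 fragments in the 12 h lists, 2.68 and 2.87 in the 3 h lists, and 3.21 and 2.71 in the control lists. In the rest it was 2.48 and 2.49 in the 12 h libraries, 3.32 and 3.55 in the 3 h libraries, and 3.77 and 3.25 in the control libraries. The mean ratio was 0.801 (log2 ratio −0.32 ± 0.07, SD, n = 6), lower in 6 of 6 libraries (exact sign-flip permutation p = 0.0312, adjusted p = 0.0312). Coverage, background and the number of summits were added to the planned measures of density, fold and width after the data were seen.

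**Figure D3:**
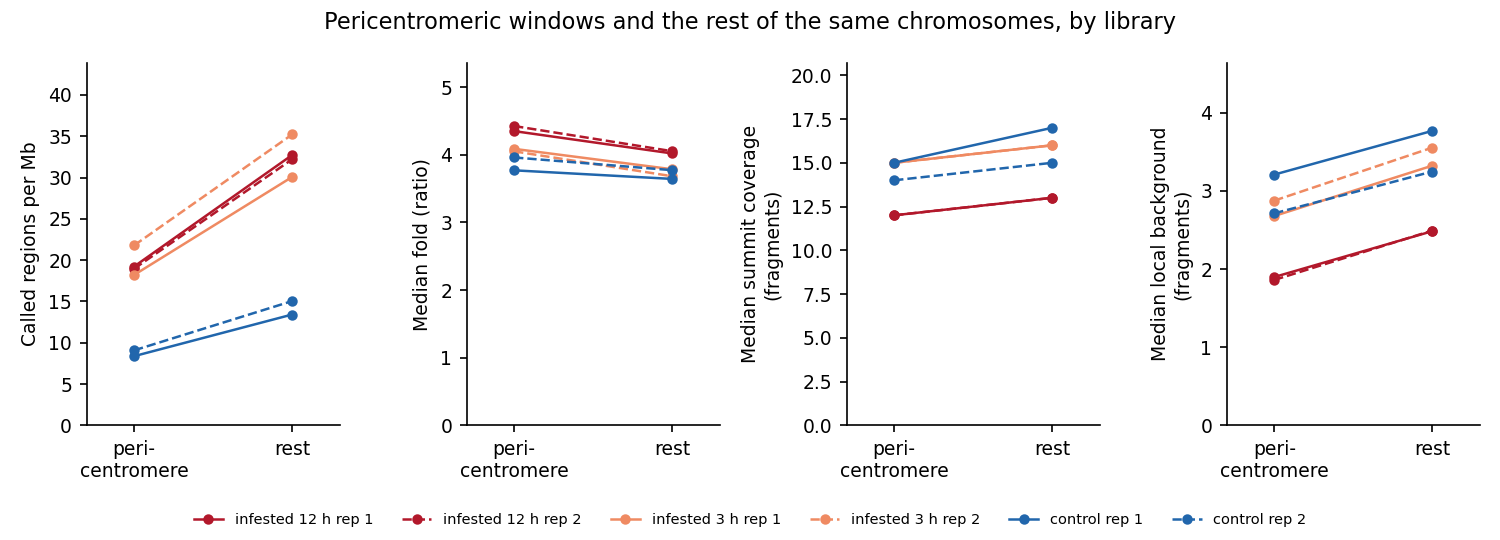
Each line joins the value of a library in the pericentromeres (left) to that in the rest of the same chromosomes (right), for called regions per Mb, median fold, median summit coverage in fragments and median local background in fragments. Density, coverage and background rise from left to right in all 6 libraries, and fold falls.

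Members were also narrower and held several summits less often. Median called width was 584.5 and 635 bp at 12 h, 577 and 583 bp at 3 h, and 526 and 549 bp in control, against 625 and 665 bp, 599 and 603 bp, and 585 and 609 bp in the rest for the same groups. The mean ratio was 0.936 (log2 ratio −0.09 ± 0.05, SD, n = 6; lower in 6 of 6 libraries, exact sign-flip permutation p = 0.0312, adjusted p = 0.0312). More than 1 summit was listed in 7.13% and 6.61% of called members in the 12 h lists. The shares were 10.3% and 11.1% in the 3 h lists, and 8.38% and 6.26% in the control lists. Such summits could belong to 1 peak or to separate peaks of a list that the merging with other lists joined. In the rest the shares were 12.6% and 11.1% in the 12 h lists, 14.2% and 15.3% in the 3 h lists, and 11.3% and 10.1% in the control lists. The mean ratio was 0.658 (log2 ratio −0.60 ± 0.17, SD, n = 6), lower in 6 of 6 libraries (exact sign-flip permutation p = 0.0312, adjusted p = 0.0312). At regions called in all 6 lists, where every library is compared over one set, fold was again higher in the pericentromeres (log2 ratio 0.14 ± 0.07) and coverage (−0.14 ± 0.07), background (−0.39 ± 0.09) and width (−0.18 ± 0.01) lower (SD, n = 6; exact permutation p = 0.0312 for each).

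Infested lists called more than 2 times as many pericentromeric regions as control lists. The 12 h lists called 1150 and 1134 members, the 3 h lists 1089 and 1303, and the control lists 501 and 543. All 4 infested values lay above both control values, while the 12 h values fell within the range of the 3 h pair. The 12 h mean was 1142 ± 11.3 and the control mean 522 ± 29.7 (SD, n = 2 each; log2 ratio 1.13), and the 3 h mean was 1196 ± 151 (SD, n = 2; log2 ratio to control 1.19). Each contrast gave an exact permutation p of 0.333, the smallest 2 libraries against 2 can give (two-sided; adjusted p = 0.458 over 11 contrasts). Pooling the infested libraries, 4 against 2, gave an exact permutation p of 0.133, which is as low as that design goes. Between 12 h and 3 h the log2 ratio was −0.06 (exact permutation p = 1). With lists cut to an equal length of 5150 peaks the log2 ratios to control were 0.02 at 12 h and 0.12 at 3 h. That cut fixes the total of each list, so it cannot show whether infested leaves have more regions.

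Relative to the rest of their chromosomes, the pericentromeres had ratios within 0.588 to 0.624 in all 6 libraries, and no contrast between groups could reach 0.05 with 2 libraries each. The ratio of pericentromeric to other density was 0.588 and 0.589 in the 12 h lists, 0.606 and 0.619 in the 3 h lists, and 0.624 and 0.604 in the control lists. The 12 h values lay slightly below both control values (log2 difference −0.06, exact permutation p = 0.333), and the 3 h values overlapped them (−0.0042, exact permutation p = 1). Both signs turned with lists of equal length, to 0.0074 at 12 h and 0.14 at 3 h. With narrower windows the infested libraries lay further below control, with no overlap at either time, by −0.16 at 12 h and −0.11 at 3 h within 2 Mb and by −0.29 and −0.23 within 1 Mb (exact permutation p = 0.333 for each). The 12 h ratios lay below both 3 h ratios (−0.06, exact permutation p = 0.333). The ratio of infested to control counts ranged more widely among the 10 pericentromeres, from 1.87 on chromosome 11 to 2.90 on chromosome 5, than among the remainders of the same chromosomes, from 2.20 on chromosome 11 to 2.53 on chromosome 5. In 5 of 10 chromosomes the pericentromere had the higher ratio. The pericentromeric ratios rest on fewer regions, 146 members against 1308 regions of the rest on chromosome 5 and 145 against 858 on chromosome 11. Smaller counts have a larger counting spread, and its part in the wider range was not tested.

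The median fold of members was also higher in the infested lists, by a log2 ratio of 0.18 at 12 h and 0.07 at 3 h relative to control (exact permutation p = 0.333 for each). Group means of the median were 4.39 at 12 h, 4.07 at 3 h and 3.86 in control for members. For the rest they were 4.04, 3.73 and 3.71, so the 12 h rise was seen there too. With lists of equal length the log2 ratios of members were 0.47 at 12 h and 0.34 at 3 h. That cut keeps the peaks of highest −log10 q and removes more weak peaks from the longer infested lists. These values are therefore no check on the uncut ones. Without control replicate 1 the uncut 3 h value was 0.039. A fold is relative to the background used for its own list, and the genome background was 1.49 and 1.43 fragments in the 12 h lists, 2.13 and 2.32 in the 3 h lists, and 2.43 and 2.004 in the control lists. Its part in the difference was not tested.

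The pattern of calls across the lists was close to that of the genome as a whole. Of the members, 269 (14.6%) were called in all 6 lists, against 15.3% in the rest and 15.2% of all regions. Both control lists called 329 members (17.8%), against 18.4% of all regions. A further 188 members (10.2%) were called by all 4 infested lists and 1 control list, and 542 (29.3%) by 1 list, against 8.75% and 30.1% of the rest. Regions are not independent replicates, so these shares carry no test.

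**Figure D4:**
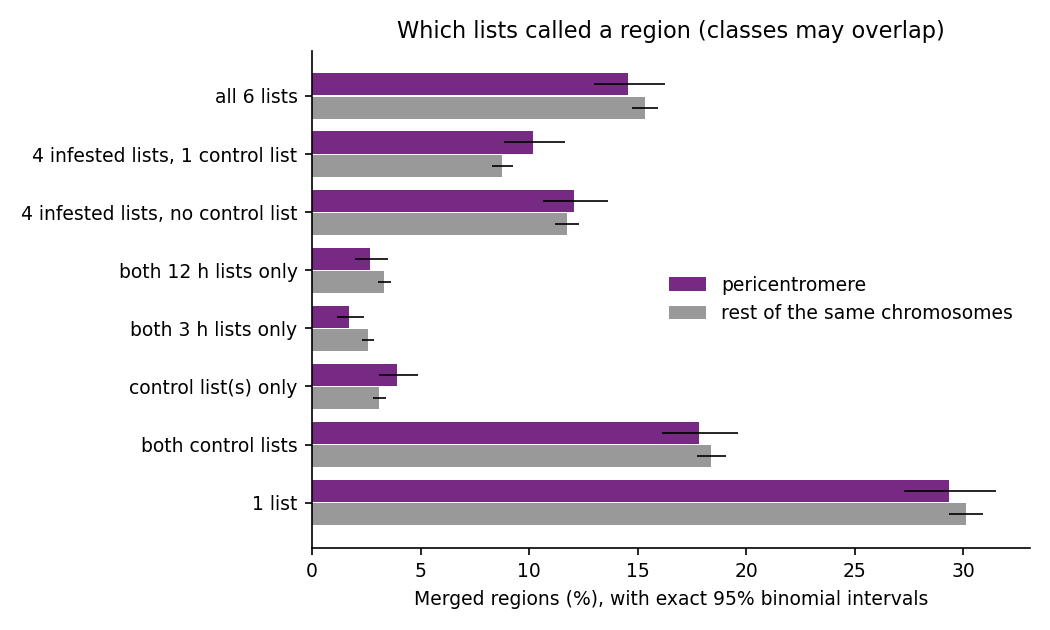
Share of merged regions (horizontal axis, %) in each class of calls, for the pericentromeres (upper bar) and the rest of the same chromosomes (lower bar), with exact 95% binomial intervals that cover counting error only. The intervals of the 2 bars overlap in every class shown.

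Gained regions were those in both lists of the infested (or later) group and absent from both lists of the comparison group; lost regions were the converse. At 12 h 356 members (19.3%) were gained relative to control, against 21.1% of all regions, and 21 (1.14%) were lost, against 1.13%. At 3 h 359 members (19.4%) were gained, against 19.4% of all regions, and 11 (0.596%) were lost, against 0.538%. Between the infested times, 60 members (3.25%) were gained at 12 h relative to 3 h, against 3.89% of all regions, and 60 were lost (3.25%), against 3.80%. All of these shares were near those of the whole genome, and the 2 contrasts with control use the same control libraries. With lists of equal length 70 members were gained and 62 lost at 12 h, and 67 were gained and 46 lost at 3 h. These were 6.48% gained and 5.74% lost at 12 h, against 7.38% and 6.999% of the rest, and 6.20% gained and 4.26% lost at 3 h, against 5.49% and 5.85% of the rest. Without 1 library a single call stands for its group, and the counts moved by over 1.5 times in most cases. Gained members at 12 h numbered 590 without 12 h replicate 1 and 589 without replicate 2, and at 3 h 716 without 3 h replicate 1. Their shares were 33.8%, 33.6% and 40.8% of members, against 36.2%, 36.6% and 39.3% of the rest. Lost members at 12 h numbered 32 without 12 h replicate 1, 62 without control replicate 1 and 76 without control replicate 2. Their shares were 1.84%, 3.43% and 4.19%, against 1.88%, 3.50% and 3.45% of the rest. Lost members at 3 h numbered 20 and 26 without 3 h replicates 1 and 2, and 49 and 59 without control replicates 1 and 2. Their shares were 1.14%, 1.57%, 2.71% and 3.25%, against 0.942%, 1.49%, 2.50% and 2.34% of the rest. Between the infested times, leaving out 12 h replicate 1, 12 h replicate 2, 3 h replicate 1 and 3 h replicate 2 in turn gave 155, 175, 98 and 145 gained and 140, 127, 258 and 156 lost. The gained were 8.89%, 9.97%, 5.58% and 8.74% of members, against 11.4%, 11.8%, 6.70% and 10.3% of the rest. The lost were 8.03%, 7.24%, 14.7% and 9.40% of members, against 8.37%, 7.71%, 14.3% and 10.3% of the rest.

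The 269 members called in all 6 lists differed in fold, width and −log10 q between the groups, as did the 2020 such regions of the rest. Their median fold was 5.42 and 5.25 in the 12 h lists, 4.94 and 4.96 in the 3 h lists, and 3.97 and 4.23 in the control lists. Their median width was 814 and 843 bp in the 12 h lists, 822 and 853 bp in the 3 h lists, and 627 and 659 bp in the control lists. A −log10 q of at least 5 was reached by 75.5% and 77.7% of them in the 12 h lists, 78.1% and 85.5% in the 3 h lists, and 46.8% and 50.6% in the control lists. All 4 infested values lay above both control values in each measure, and these differences carry no test. Over the lists the 269 members had a mean fold of 3.03 to 11.7, with a median of 4.81 against 4.36 in the rest. The strongest was chromosome 11 from 12328395 to 12329081, 329 kb above the given position. Its folds were 10.5 and 7.41 in the 12 h lists, 14.8 and 13.0 in the 3 h lists, and 12.2 and 12.3 in the control lists. Both 12 h values lay below the other 4, and summit coverage was 25 and 17 fragments in the 12 h lists, 48 and 42 in the 3 h lists, and 44 and 38 in the control lists. Only 3 always called regions of the rest had a higher mean fold. Chromosome 3 from 19573461 to 19574638, 174 kb above the position, reached folds of 11.8 and 10.1 in the 12 h lists, 9.42 and 10.9 in the 3 h lists, and 9.03 and 9.29 in the control lists. All 4 infested values lay above both control values, the infested times overlapped, and 3 further members lay within 10 kb.

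On chromosome 5 the strongest always called member, from 12889414 to 12889986, showed fold values of 11.3 and 8.50 in the 12 h lists, 11.5 and 7.67 in the 3 h lists, and 8.29 and 9.01 in the control lists. On chromosome 6, from 15451629 to 15452356, the folds were 9.10 and 7.88 in the 12 h lists, 8.82 and 11.9 in the 3 h lists, and 7.64 and 8.57 in the control lists. On chromosome 2, from 13704367 to 13705018, they were 7.42 and 6.73 in the 12 h lists, 5.50 and 7.93 in the 3 h lists, and 7.53 and 5.91 in the control lists. In all 3 regions infested and control values overlapped. These 5 strongest members, on chromosomes 2, 3, 5, 6 and 11, lay within the first 0.5 Mb above the given position, a stretch that held 9.58% of all members and 13.8% of the always called ones.

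The other 5 chromosomes had their strongest always called member farther out. On chromosome 9, from 4893000 to 4893681, folds were 9.01 and 9.24 in the 12 h lists, 8.98 and 10.2 in the 3 h lists, and 4.95 and 6.99 in the control lists, with all infested values above both control values. On chromosome 8, from 14081421 to 14082691, they were 7.84 and 8.45 in the 12 h lists, 6.41 and 6.97 in the 3 h lists, and 4.05 and 6.47 in the control lists, where 1 control value lay above 1 of the 3 h values. On chromosome 1 the member from 18866016 to 18867129 had a mean fold of 6.53, on chromosome 12 that from 9771390 to 9772362 had 6.15, and on chromosome 7 that from 10124627 to 10125561 had 5.86. Genes at these positions were not analysed here, because no annotation of the build was used.

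Members called by all 4 infested lists and by neither control list numbered 223 (12.1%), against 11.8% of all regions. Their median fold was 4.29 and 4.49 at 12 h and 4.04 and 4.21 at 3 h, below the 5.42, 5.25, 4.94 and 4.96 of always called members in the same libraries. The leading one lay on chromosome 6 between 14647095 and 14648184, with fold values of 7.88 and 6.67 at 12 h and 6.10 and 8.16 at 3 h. On the same chromosome, 17722290 to 17723055 had 8.49 and 6.18 at 12 h and 5.77 and 8.04 at 3 h. On chromosome 3, 20529455 to 20530458 had 7.25 and 5.63 at 12 h and 5.31 and 6.19 at 3 h. The chromosome 1 member between 19073191 and 19074008 had 5.86 and 7.52 at 12 h and 5.34 and 5.13 at 3 h. On chromosome 3, 21179885 to 21180750 had 7.33 and 7.79 at 12 h and 5.93 and 5.43 at 3 h. On chromosome 7, 11268866 to 11269740 had 8.76 and 7.75 at 12 h and 6.71 and 5.20 at 3 h. The 2 infested times overlapped in the first 3 of these 6, and in the other 3 both 12 h values were the higher.

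Calls limited to one time were fewer. Both 12 h lists alone called 49 members (2.65%, against 3.33% of the rest), and both 3 h lists alone called 31 (1.68%, against 2.57% of the rest). The leading 12 h member, chromosome 5 from 10563676 to 10564317, showed fold values of 4.82 and 5.71 on 11 and 13 fragments. Chromosome 5 from 12761314 to 12762443 had 4.82 and 5.54, and on chromosome 6 the members from 16693787 to 16694643 and from 14670477 to 14670915 had lowest folds of 4.31 and 4.28. The leading 3 h member, chromosome 9 from 1790664 to 1791043, showed fold values of 4.48 and 4.82 on 13 and 15 fragments. The next 3 began on chromosome 11 at 14153508 (folds 4.80 and 4.22), on chromosome 2 at 13301414 (3.84 and 4.22) and on chromosome 12 at 14837324 (5.23 and 3.64). With so few fragments a region just above the threshold in 1 library can fall just below it in the next.

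Members called in control but missing after infestation were rare. Among the 11 lost at 3 h, both 12 h lists held 4, a single 12 h list held 3, and no 12 h list held the other 4. Among the 21 lost at 12 h, both 3 h lists held 13, a single 3 h list held 4, and no 3 h list held the other 4. The same 4 members were thus missing from all infested lists. The strongest lost member was chromosome 2 from 14252954 to 14253430, 653 kb above the position, missing at 3 h and called in both 12 h lists. Its 2 neighbours within 10 kb, picked after the values were known, were called unevenly as well: 14247161 to 14247732 was called in both 12 h and both control lists and in neither 3 h list, and 14243836 to 14244337 was called in 12 h replicate 1, 3 h replicate 1 and both controls. Chromosome 9 from 2783228 to 2783792, only 16.5 kb below the given position, was missing from both 12 h lists, while its fold was 5.12 and 3.92 in the 3 h lists and 5.88 and 4.99 in the control lists. Chromosome 3 from 20892001 to 20893054 was also missing at 12 h, with a fold of 4.70 and 4.52 in the 3 h lists and 4.72 and 4.70 in the control lists. On chromosome 3 the region from 21999974 to 22001214, missing from both 12 h lists, had 44 and 46 fragments at its summit at 3 h and 42 and 37 in control, against member medians of 15 at 3 h and of 15 and 14 in control.

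The members closest to the given positions were unevenly called, with folds between 2.88 and 5.97. On chromosome 1 the closest was 16694290 to 16694634, called in 12 h replicate 1 alone, and on chromosome 9 it was 2805508 to 2805852, again in 12 h replicate 1 alone. On chromosome 11 the closest, 11951733 to 11952227, was called in control replicate 2 alone. On chromosome 6 it was 15284962 to 15285444, called in 2 lists with a fold of 2.88 in each. On chromosomes 3 and 8 the closest members, 19391097 to 19391673 and 12912886 to 12913692, were called in all 4 infested lists and no control list. On chromosomes 5 and 12 the closest, 12453341 to 12454520 and 11906238 to 11907433, were called in 5 lists. On chromosome 2 (13605822 to 13606752) and chromosome 7 (11938454 to 11939081) they were called in 3 lists. The chromosome 7 member lay 161 kb below its position. None of the 10 had a call from every library. Among members as a whole only 269 (14.6%) had one, so its absence from these 10 does not set them apart.

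Both control lists and both 3 h lists had their most regions, among 0.25 Mb bins within 3 Mb, just above the given positions. The 12 h lists were highest elsewhere, with 64 and 65 regions from 2.25 to 2.5 Mb below. In the first 0.25 Mb above, pooled over the 10 chromosomes, the 12 h lists called 51 and 46 regions, the 3 h lists 60 and 74, and the control lists 46 and 42. The infested mean was 57.8 ± 12.3 (SD, n = 4) and the control mean 44 ± 2.83 (SD, n = 2), a ratio of 1.31 that was the lowest of 24 bins of that size, while the other bins lay between 1.83 and 3.47. The next 3 bins above it, up to 1 Mb, had control means of 28.5, 30 and 26.5 and the next 3 lowest ratios, at 1.84, 1.83 and 1.91, so the pattern spanned the first megabase above the position. The control mean in the other bins was 15.5 to 30, while the median bin had an infested mean of 47.5. Bins of this size were not counted beyond 3 Mb, where control density reached 14.6 per Mb in a 1 Mb bin. In the first 0.25 Mb above, mean density was 19.4 per Mb at 12 h, 26.8 at 3 h and 17.6 in control. The infested mean there thus joins 2 times whose counts did not overlap. The bin was picked after its values were seen. Its infested and control counts overlap at 46 (exact permutation p = 0.267 for 4 libraries against 2), and the ratio was 1.19 to 1.40 without each library in turn.

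**Figure D5:**
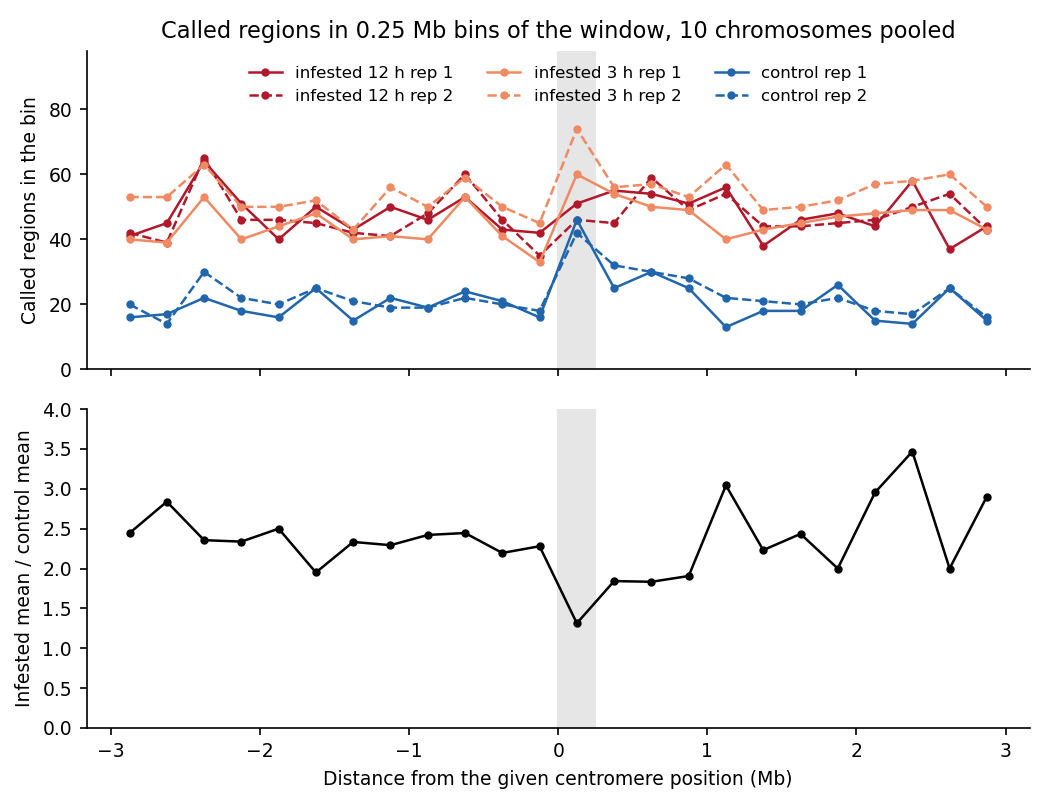
Called regions per library (upper panel) and the ratio of the infested mean to the control mean (lower panel) in 0.25 Mb bins of distance from the given position (horizontal axis, Mb), pooled over 10 chromosomes, with the first bin above the position in grey. Control lines peak at 46 and 42 in that bin and 3 h lines at 60 and 74, and the ratio there falls to 1.31.

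The counts by chromosome are those the bin was picked on, so they describe it and add no support. The ratio was below that of the whole pericentromere on 8 of the 10 chromosomes. On chromosome 6 the counts were 8 and 8 in the 12 h lists, 11 and 11 in the 3 h lists, and 9 and 9 in the control lists. On chromosome 12 they were 12 and 11 in the 12 h lists, 12 and 13 in the 3 h lists, and 9 and 8 in the control lists. On chromosome 3 they were 7 and 5 in the 12 h lists, 8 and 11 in the 3 h lists, and 7 and 7 in the control lists. Chromosomes 8 and 9 went the other way, with 3, 3, 3 and 7 infested calls against 0 and 1 in control on chromosome 8. Chromosome 7 counts among the 8 with a single call, in control. The shares of calls follow in part from that choice as well. Of the 92 regions in the bin, 32 (34.8%) were called in both control lists, against 16.9% of the 1755 other members, and 21 (22.8%) in all 6 lists, against 14.1%. Calls by all 4 infested lists with no control call were 6 of 92 (6.52%), against 12.4%.

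In that bin summit coverage was higher in every library than at other members, with medians of 14 and 14 against 12 and 12 fragments at 12 h, 18 and 17 against 14 and 15 at 3 h, and 19 and 16.5 against 15 and 14 in control. The local background was raised too, to 1.46 and 1.42 times the genome background in the 12 h lists, 1.52 and 1.37 in the 3 h lists, and 1.66 and 1.59 in the control lists, against 1.24 to 1.35 at other members. A local background over 2 times that of the genome in at least 1 list was found for 22 of the 92 regions (23.9%), against 13.6% of other members. The background is known only in lists that called a region, so a region called in more lists had more occasions to pass that limit. The part of this raised background in the control calls was not tested. With lists of equal length the bin held a mean of 32.5 infested and 43 control regions, a ratio of 0.756, against 1.05 for the whole of the pericentromeres.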

How the data were processed

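The submitters' processing notes name bcl2fastq (2.17), Trimmomatic (0.33), Bowtie (1.1.2), MACS2 (2.1.0) and build IRGSP-1.0, without roles; settings, read filters and input: not given in the sources used here. In each list, called per library, the deposited values are a fold (a ratio to the local background used for that list), a −log10 p and −log10 q, a score that was not used, and a summit offset. Positions are 1-based.

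Members and alternatives were chosen with earlier results of these data known. A fold in a region is the highest of its peaks in a list. Summit coverage and local background were solved from fold and −log10 p as a Poisson tail, and the solver was tested on simulated peaks. Pericentromere and rest were compared within libraries by exact sign-flip tests over 6 libraries, and groups by exact permutation tests of log2 values per library (two-sided), with Benjamini-Hochberg adjustment over 6 and 11 tests. Chromosome length was taken as the end of the last region. Shared replicate numbers were not treated as pairs in the main tests. Regions were named by rank within each class: the strongest always called member and the member closest to the given position on each chromosome, the 6 leading members of the 4 infested lists, and 4 leading members of each class called at 1 time or lost, and the closest regions on both sides of the 3 Mb limit. Gene groups planned for naming were not run. No peak was shared with identical values by any 2 lists. Genes and sequences were not analysed here. Python 3.11.15, numpy 2.4.6, scipy 1.17.1 and pandas 2.3.3 were used.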

Additional observations from a re-analysis of the deposited data

How the results depend on the processing

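Direction and significance of the within-library comparisons held in 46 of 47 alternatives that kept 6 libraries; within 1 Mb of the position the deficit in summit coverage was a log2 ratio of −0.07 (exact permutation p = 0.125). Without 1 library the test cannot go below 0.0625; log2 ratios then ran from −0.74 to −0.72 (density), 0.094 to 0.11 (fold) and −0.10 to −0.083 (width). Differences from control in the density ratio turned sign in some alternatives and grew in others; that of 12 h to 3 h stayed negative in each. At −log10 q of at least 5 they were 0.047 (12 h to control), 0.17 (3 h) and 0.11 (all infested), at equal list length 0.0074, 0.14 and 0.074, and at 3 h with merging within 200 bp 0.0024; without 1 library the 3 h value ran from −0.029 to 0.020. In narrower windows they were −0.16, −0.11 and −0.14 (2 Mb) and −0.29, −0.23 and −0.26 (1 Mb). The log2 ratio of 12 h to 3 h counts ran from −0.19 to 0.069 without 1 library. In the first 0.25 Mb above the position equal lists gave a log2 ratio of infested to control counts of −0.44.

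The share called in all lists, members before rest, was 6.90% and 8.20% at −log10 q of at least 5, 8.02% and 7.50% when a call had to cover 50% of the region, 16.0% and 15.2% within 2 Mb, and 17.3% and 15.1% within 1 Mb, so that its order turned in the last 3; for members it was 15.7 to 21.5% without 1 library. Gained at 12 h were 166 (−log10 q), 70 (equal lists), 223 (2 Mb) and 113 (1 Mb), which is 17.9%, 6.48%, 18.2% and 18.1% of members, against 19.5%, 7.38%, 21.1% and 21.0% of the rest; at 3 h 184, 67, 212 and 103 (19.8%, 6.20%, 17.3% and 16.5% of members, against 17.9%, 5.49%, 19.5% and 19.4% of the rest); at 12 h relative to 3 h 32, 37, 39 and 17. Those gained at 12 h relative to 3 h were 3.45%, 3.43%, 3.18% and 2.72% of members, against 5.26%, 4.84%, 3.80% and 3.80% of the rest. Lost at 12 h were 13, 62, 13 and 9 in the same order. Their shares were 1.40%, 5.74%, 1.06% and 1.44%, against 1.92%, 6.999%, 1.17% and 1.15% of the rest. Lost at 3 h were 7, 46 and (1 Mb) 6, or 0.754%, 4.26% and 0.962%, against 0.925%, 5.85% and 0.514% of the rest. Lost at 12 h relative to 3 h were 24 within 1 Mb (3.85%, against 3.76% of the rest). These settings hold 928, 1080, 1226 and 624 members. Without 1 library the gained counts ran from 356 to 590 (12 h), 359 to 716 (3 h) and 60 to 175 (12 h to 3 h), and the lost counts from 21 to 76, 11 to 59 and 60 to 258, since 1 call then stands for a group. The highest counts came without 12 h replicate 1 (590), 3 h replicate 1 (716 and 258), 12 h replicate 2 (175) and control replicate 2 (76 and 59). In that order they were 33.8%, 40.8%, 14.7%, 9.97%, 4.19% and 3.25% of members, against 36.2%, 39.3%, 14.3%, 11.8%, 3.45% and 2.34% of the rest.

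Same-numbered libraries did not deviate together region by region (correlations −0.034 to 0.0057 over 2657 regions). A shift common to all regions of a library would not show in these correlations, so pairing is not excluded. The replicate block gave an exact permutation p of 0.5, the smallest 2 pairs can give. Its log2 values (1.13 and 1.19 for counts at 12 h and 3 h) equal the unpaired ones by arithmetic. The comparisons of coverage, background, several summits, always called regions and 0.25 Mb bins were chosen after seeing the data. Coverage of 12 to 17 fragments limits single folds; the lists carry no read totals.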

Other observations

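The ratio of median fold in the pericentromeres to that in the rest was 1.08 and 1.09 for the 12 h libraries, 1.08 for 3 h replicate 1 and highest for 3 h replicate 2 (log2 ratio 0.14), and 1.03 and 1.05 for the control libraries, with no overlap between infested and control libraries; it was picked after the values were seen and carries no test. Peaks with a −log10 q of at least 5 made up 42.2% and 44.7% of called members in the 12 h lists, 43.9% and 46.6% in the 3 h lists, and 34.3% and 33.9% in the control lists, against 40.4% and 41.2%, 40.4% and 41.0%, and 34.8% and 34.3% in the rest for the same groups. Members thus passed that limit more often than the rest in the 4 infested libraries and slightly less often in both controls. The genome background of the 12 h libraries was lower than that of the others, as given above, and its part was not tested.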
